A study of Mus musculus with 21 samples.

Results

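B220-positive bone marrow cells carrying both a Cebpb LAP transgene and a Blnk knockout were compared with the same cells of wild-type mice, with 3 arrays in each group, which makes 6 of the 21 arrays of the series. The arrays were chosen by their titles alone. LAP is a form of C/EBPβ, the transcription factor encoded by Cebpb, that switches genes on, and BLNK is the adaptor that couples the pre-B cell receptor and the B cell receptor to their downstream enzymes. The remaining marrow groups, LAP tg (the transgene alone) and Blnk KO (the knockout alone), have 3 arrays each and are set beside the comparison here. The series also holds 9 arrays of LB31, a mouse pre-B leukaemia line, which are not analysed here. All 4 marrow groups were taken from mice as B220-positive cells on a cell sorter, with no culture or treatment named, and the series describes them as non-neoplastic. The promoter that drives the transgene, the strain, age and sex of the mice, and whether each array stands for a separate animal are not stated in the labels. The p-values measure the spread among these arrays, and that spread may be only technical.

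B cells form in the marrow through stages marked by the order of their receptor gene rearrangements. Pro-B cells rearrange the heavy chain. In large pre-B cells that chain pairs with the surrogate light chain, made of λ5 (Igll1) and VpreB, to form the pre-B cell receptor. The receptor signals through SYK, BTK and PLCγ2, which BLNK brings together, and the cells divide a few times before they stop, rearrange a light chain and show a complete receptor as immature B cells. Immature and mature cells then gain MHC class II, Fc and complement receptors and the receptors that guide them to lymphoid tissue. C/EBPβ is mainly known in the blood as a driver of monocyte, macrophage and granulocyte genes, and forced C/EBP activity can turn B-lineage cells into macrophage-like cells.

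Transcripts were read on Affymetrix genome-wide mouse expression arrays. Values below are normalized log2 signals, and a change is the log2 difference LAP tg/BLNK KO minus wild-type, given ± SE with n = 3 per group. Each adjusted p comes from limma's moderated test with Benjamini-Hochberg adjustment, on 13347 genes unless another setting is named. A gene is said to have risen or fallen where its adjusted p was under 0.05. Values of a gene's second probe set come from the same model fitted over all probe sets that passed the filter. The median deposited signal was 21.5 ± 2.07 (SD, n = 3) on the wild-type and 29.3 ± 1.87 on the LAP tg/BLNK KO arrays, so the arrays were normalized to a common distribution before testing. It was 21.1 ± 0.265 on the LAP tg and 28.8 ± 1.78 on the Blnk KO arrays. The deposited level thus went with the knockout label, and its part in results that follow that label was not tested. Arrays of a marrow group correlated with r of at least 0.964. The 3′ to 5′ ratio of the GAPDH control probe sets, a measure of RNA quality, was 0.79 ± 0.02 in wild-type and 0.86 ± 0.06 in LAP tg/BLNK KO marrow. That of the actin probe sets was 1.41 ± 0.04 and 1.40 ± 0.06. In LAP tg and Blnk KO marrow the GAPDH ratio was 0.97 ± 0.08 and 0.84 ± 0.01, and the actin ratio 1.41 ± 0.05 and 1.42 ± 0.07.

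The transgene label was visible in the data and the knockout label could not be checked. Cebpb signal was 5.54, 5.74 and 5.68 on the wild-type arrays and 9.97, 9.86 and 9.81 on the LAP tg/BLNK KO arrays, against a mean of 10.02 in LAP tg and 5.23 in Blnk KO marrow. Both groups without the transgene lay far below both groups with it. Cebpb rose 18.7-fold (4.23 ± 0.16, adjusted p = 1.09e-09). Its other probe set gave 7.36, 7.62 and 7.18 in wild-type and 7.72, 7.17 and 7.02 in LAP tg/BLNK KO marrow, which overlap (-0.08 ± 0.39, adjusted p = 0.906). Blnk was read by 1 probe set, with 12.27, 12.41 and 12.27 on the wild-type and 12.04, 11.79 and 11.97 on the LAP tg/BLNK KO arrays. It fell by 0.39 ± 0.11 (adjusted p = 0.0181) and was still among the bright genes. Without wild-type array 2 its adjusted p was 0.0707, without LAP tg/BLNK KO array 2 it was 0.0846, as deposited 0.182 and without the intensity trend in limma's variance 0.0508. Mean Blnk signal was 12.32 in wild-type, 12.17 in LAP tg and 12.25 in Blnk KO marrow. The knockout alone thus differed from wild-type by only -0.07. Whether this probe set overlaps the sequence removed in the knockout is not known here, so the knockout rests on the labels.

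The sort label was checked against markers of the B lineage, which were detected in both groups. Cd79a, a signalling chain of the B cell receptor, was at 8.97 and 8.96, and Ebf1, a factor that specifies the lineage, at 11.13 and 11.68. Pax5, which keeps cells in the lineage, was at 6.75, 6.45 and 6.72 in wild-type against 7.09, 6.11 and 6.63 in LAP tg/BLNK KO marrow, and the kinase gene Blk fell from 9.69, 9.65 and 9.72 in wild-type to 7.52, 7.25 and 6.58 in LAP tg/BLNK KO marrow. Ptprc encodes CD45, whose B220 form was used to sort the cells, and it fell by 0.75 ± 0.07 (adjusted p = 4.31e-06). Of 7 tested markers, 2 rose and 3 fell, where 16.5% of all tested genes rose and 14.7% fell, with a median change of -0.03, and leaving out any 1 array gave 1 rise (Ebf1 was lost) and 3 falls. After median centring 0 rose. Their summed signal was 21074 to 22192 on the wild-type and 17206 to 17980 on the LAP tg/BLNK KO arrays, which do not overlap. In a bulk sample, fewer cells of a type and less RNA per cell cannot be told apart, and this holds for every result below.

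Of the 13347 genes, 4165 changed, or 31.2%: 2208 rose (16.5%) and 1957 fell (14.7%). Every list count in this text stands beside these shares of 16.5% and 14.7%. At least 2-fold changes numbered 688 rises and 518 falls, and at least 8-fold changes 34 rises and 67 falls. The median change of all genes was 0.04. The share of risers depends on the scaling: 53.0% of the calls were higher here, 85.8% on the values as deposited (4726 higher, 785 lower, median change 0.36) and 40.5% after centring each array on its median (1612 higher, 2366 lower, median change -0.03). Small changes can thus change sign with the scaling. The 3 values of each group did not overlap for 4130 of the 4165 called genes and for 49.1% of all tested genes.

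**Figure D1:**
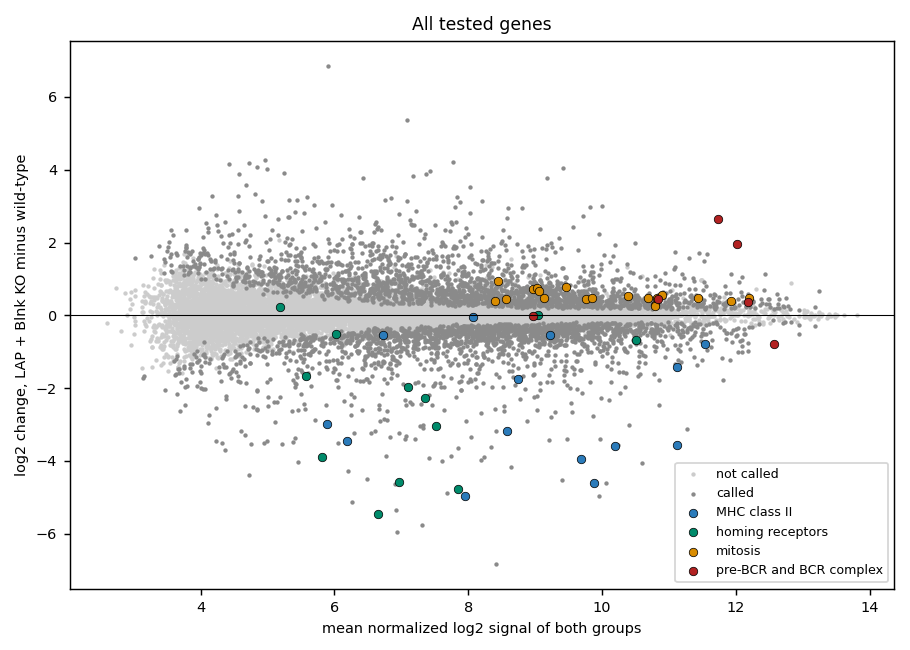
Log2 change (LAP tg/BLNK KO minus wild-type) against the mean normalized log2 signal of both groups for all 13347 tested genes, 3 arrays per group. MHC class II (blue) and homing receptor genes (green) reach below -4, mitosis genes (orange) lie just above 0, and the 2 highest red points are Igll1 and Vpreb1. LAP + Blnk KO in the plots stands for LAP tg/BLNK KO.

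The pre-B cell receptor genes rose while the light chain segments of the complete receptor fell. Igll1 signal was 10.46, 10.16 and 10.61 on the wild-type arrays and 13.14, 13.03 and 13.002 on the LAP tg/BLNK KO arrays. Vpreb1 signal was 11.05, 10.85 and 11.21 in wild-type against 13.02, 12.95 and 13.04 in LAP tg/BLNK KO marrow. Both genes were higher on every LAP tg/BLNK KO array than on any wild-type array, by 2.65 ± 0.15 (adjusted p = 4.92e-08) and 1.96 ± 0.11 (adjusted p = 3.9e-08). Their means in Blnk KO marrow, 12.64 and 12.64, lay nearer to those with both changes than to those of wild-type marrow. In the list of the pre-B and B cell receptor complex, 4 of 6 tested genes rose and 1 fell, with a median of 0.42. Vpreb3, a chaperone-like partner of receptor chains in pre-B cells, rose by 0.38 ± 0.09 and Cd81, a tetraspanin, by 0.46 ± 0.10. The signalling chain gene Cd79b fell by 0.78 ± 0.10, and its partner Cd79a did not pass the test (adjusted p = 0.978). After median centring Vpreb3 no longer passed the test (0.16, adjusted p = 0.331).

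Of the immunoglobulin gene segments, 15 of 16 tested fell and 0 rose, with a median of -3.32. Iglv1, a variable segment of the λ light chain, had signals of 11.88, 11.93 and 11.68 on the wild-type and 4.70, 5.30 and 5.03 on the LAP tg/BLNK KO arrays. No other tested gene of the comparison fell as far (6.82 ± 0.18, adjusted p = 5.7e-11). Igkv8-30, a κ variable segment, fell by 4.62 ± 0.26, and its mean was 12.37 in wild-type, 12.19 in LAP tg, 12.11 in Blnk KO and 7.75 in LAP tg/BLNK KO marrow. Igha, the constant region of IgA, fell by 5.75 ± 0.28, from 10.18 to 4.43. Ighm, the constant region of the μ heavy chain that pre-B and B cells share, was at 13.005, 13.01 and 12.98 in wild-type against 12.94, 12.80 and 12.70 in LAP tg/BLNK KO marrow and did not pass the test (-0.18 ± 0.09, adjusted p = 0.152). Segments of a family are near-identical, and a probe set may read several of them. Igk, read by a probe set annotated with the name of the κ locus, fell by 2.89 ± 0.16, and the heavy chain variable segment Ighv14-2 by 3.01 ± 0.09.

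Genes of V(D)J recombination, which cuts and joins these segments, changed in both directions: 1 of 10 tested rose and 5 fell, with a median of -0.27. On the values as deposited 3 rose and 2 fell, without wild-type array 2 or LAP tg/BLNK KO array 2 there were 2 falls, and without wild-type array 1 there were 3. Dntt, the terminal transferase that adds bases at heavy chain joins in pro-B cells, rose by 1.98 ± 0.24 (adjusted p = 3.84e-05), from 9.51, 9.23 and 9.77 in wild-type to 11.53, 11.51 and 11.40 in LAP tg/BLNK KO marrow. Brwd1, a chromatin reader needed for κ recombination, stood at 9.22, 9.30 and 9.15 on the wild-type and 4.46, 4.70 and 4.62 on the LAP tg/BLNK KO arrays. It fell by 4.63 ± 0.12 (adjusted p = 5.7e-11), and its mean was 9.23 in wild-type, 8.61 in LAP tg, 6.44 in Blnk KO and 4.59 in LAP tg/BLNK KO marrow. Xrcc5, a subunit of the Ku end-joining complex, fell by 1.11 ± 0.15. The recombinase gene Rag1 fell by 0.49 ± 0.16 (adjusted p = 0.0298), a call that did not hold without wild-type array 1 or 2 or LAP tg/BLNK KO array 1 or 2 (adjusted p = 0.071 to 0.133), and Rag2 was at 0.35 ± 0.16, adjusted p = 0.126.

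MHC class II genes fell together. These genes encode the α and β chains that present peptides to T helper cells, the H2-DM and H2-O proteins that edit the peptides, and the factors that switch the genes on. Their promoters are known for a shared upstream module read by the RFX complex and NF-Y and bound by the coactivator CIITA. The bases just before the annotated start of 6 of them are shown because these genes fell together and carry ATTGG, the core letters of the module's NF-Y box. Each line is the 150 bases before the start (RefSeq, build GRCm38.p6, 5′ to 3′ along the gene), with ATTGG, the reverse complement of CCAAT, in capitals.
H2-Aa, chr17:34287824-34287973, minus strand: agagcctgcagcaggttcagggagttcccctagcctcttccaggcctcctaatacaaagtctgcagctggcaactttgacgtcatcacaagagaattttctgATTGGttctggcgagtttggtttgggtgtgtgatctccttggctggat
H2-Eb1, chr17:34305717-34305866, plus strand: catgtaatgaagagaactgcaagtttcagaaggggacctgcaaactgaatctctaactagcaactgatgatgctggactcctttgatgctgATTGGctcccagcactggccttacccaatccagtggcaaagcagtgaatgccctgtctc
H2-Eb2, chr17:34325525-34325674, plus strand: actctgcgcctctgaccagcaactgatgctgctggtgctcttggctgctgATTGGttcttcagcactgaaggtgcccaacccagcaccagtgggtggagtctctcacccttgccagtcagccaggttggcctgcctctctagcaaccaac
H2-DMb2, chr17:34145099-34145248, plus strand: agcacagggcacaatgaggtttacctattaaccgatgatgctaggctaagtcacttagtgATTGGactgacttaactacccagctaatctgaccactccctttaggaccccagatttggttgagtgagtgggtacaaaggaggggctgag
H2-Oa, chr17:34092229-34092378, plus strand: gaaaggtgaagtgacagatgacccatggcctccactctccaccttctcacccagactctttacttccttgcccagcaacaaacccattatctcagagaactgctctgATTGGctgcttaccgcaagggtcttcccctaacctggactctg
H2-Ob, chr17:34238755-34238904, plus strand: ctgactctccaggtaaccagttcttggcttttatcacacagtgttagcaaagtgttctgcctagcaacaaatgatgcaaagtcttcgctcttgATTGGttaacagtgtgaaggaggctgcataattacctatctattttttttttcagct
Counted from the start, the capitals begin at -48 in H2-Aa, -59 in H2-Eb1, -100 in H2-Eb2, -90 in H2-DMb2, -43 in H2-Oa and -57 in H2-Ob. Rfxank, the gene of an RFX subunit, also fell and held ATTGG, at -41, and is not shown. Of the 10 tested class II list genes whose promoter was searched, 8 held CCAAT on either strand within 250 bases before the start, against 34.5% of 27025 promoters of the same length. The search of gene sets left out the chromosome that holds Cd74, a filter not applied to the 27025. A match of 5 letters is a description of the sequence and not of binding.

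On the arrays, H2-Aa had signals of 12.86, 12.997 and 12.86 in wild-type and 9.40, 9.39 and 9.22 in LAP tg/BLNK KO marrow. H2-Eb1 had 12.18, 12.22 and 12.11 in wild-type against 7.85, 7.74 and 7.13 in LAP tg/BLNK KO marrow. In both genes the groups lay more than 3 log2 units apart, with falls of 3.57 ± 0.11 (adjusted p = 1.98e-10) and 4.60 ± 0.17 (adjusted p = 1.42e-09). H2-DMb2, a chain of the peptide editor, fell further, from 10.41, 10.56 and 10.33 in wild-type to 5.68, 5.43 and 5.32 in LAP tg/BLNK KO marrow (4.95 ± 0.16). H2-Oa and H2-Ob, which restrain that editor in B cells, fell by 1.75 ± 0.11 and 1.41 ± 0.14. The coactivator gene Ciita fell from 7.79, 8.14 and 7.78 in wild-type to 4.73, 4.21 and 4.44 in LAP tg/BLNK KO marrow, a change of -3.44 ± 0.19 (adjusted p = 2.61e-08). Cd74, the invariant chain that guides class II to its compartment, fell by 3.94 ± 0.19, H2-Ab1 by 3.59 ± 0.17, H2-Eb2 by 2.98 ± 0.18 and H2-DMa by 3.17 ± 0.16. Of the RFX subunits, Rfx5 fell by 0.54 ± 0.08 and Rfxank by 0.53 ± 0.12, calls that were lost as deposited (adjusted p = 0.0545 and 0.333) and for Rfxank also with the mean of all probe sets (adjusted p = 0.418), while Rfxap was at -0.06 ± 0.11, adjusted p = 0.753. In all, 13 of 14 tested list genes fell and 0 rose, with a median of -3.08. As deposited 11 fell, with the mean of all probe sets 12, and 13 whichever array of either group was left out. The summed signal of the list was 30506 to 34127 on the wild-type, 22504 to 26713 on the LAP tg, 12884 to 16453 on the Blnk KO and 5946 to 6704 on the LAP tg/BLNK KO arrays. None of these ranges overlapped.

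MHC class I genes, which nearly every cell uses, gave no common direction. H2-K1 and B2m, at -0.29 and -0.27 after median centring, did not pass the test here. H2-K1 was at 12.65, 12.67 and 12.73 in wild-type against 12.75, 12.71 and 12.76 in LAP tg/BLNK KO marrow, and B2m at 12.91, 12.86 and 13.08 in wild-type against 13.04, 13.10 and 13.15 in LAP tg/BLNK KO marrow. Their changes were 0.06 ± 0.06, adjusted p = 0.509, and 0.15 ± 0.08, adjusted p = 0.177. In the list 3 of 14 rose and 2 fell, 7 and 0 as deposited, and 0 and 5 after median centring, and leaving out any 1 array gave 1 or 2 rises and 1 fall. Among all tested genes 16.5% rose and 14.7% fell. Canx, a chaperone of class I chains, rose by 0.35 ± 0.09, and Tapbp, which loads peptides, fell by 0.38 ± 0.09.

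In the list of mature B cell surface receptors 15 of 20 tested genes fell and 1 rose, with a median of -1.51. The list also holds H2-DMb2, the peptide editor chain already counted among the class II falls. It shares Cd180 and Ly86 with the Toll-like receptor list, so the lists are not separate. Fcer2a, the low-affinity IgE receptor CD23, was at 9.97, 10.03 and 9.76 on the wild-type arrays and 4.16, 4.61 and 3.11 on the LAP tg/BLNK KO arrays, where it lay near or under the filter level of 4.20. It fell by 5.96 ± 0.27 (adjusted p = 5.79e-09). Fcmr, the receptor for the Fc part of IgM, was at 11.65, 11.85 and 11.47 in wild-type against 7.31, 6.98 and 7.12 in LAP tg/BLNK KO marrow, a fall of 4.52 ± 0.14. Ms4a1, the CD20 antigen, was at 12.81, 12.84 and 12.81 in wild-type against 9.81, 9.59 and 9.70 in LAP tg/BLNK KO marrow. Its mean in Blnk KO marrow was 12.37, so most of its fall of 3.12 ± 0.09 separated the marrow with both changes from that with the knockout alone. The complement receptor gene Cr2 fell by 3.35 ± 0.18, the costimulatory receptor Cd40 by 3.02 ± 0.22, Cd83 by 3.91 ± 0.12 and the complement regulator Cd55 by 3.90 ± 0.17. Tnfrsf13c, the receptor for the survival factor BAFF, fell by 1.78 ± 0.15. The riser was Slamf6, an adhesion and signalling receptor of lymphocytes (0.59 ± 0.14).

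Receptors and phosphatases that restrain B cell signals fell in 9 of 14 cases and rose in 1, with a median of -0.87. Btla, an inhibitory receptor of the immunoglobulin family, was at 12.35, 12.46 and 12.50 in wild-type against 7.35, 7.35 and 7.69 in LAP tg/BLNK KO marrow. It fell 31.5-fold (4.98 ± 0.18, adjusted p = 9.83e-10). Cd22, a sialic acid-binding inhibitor of the B cell receptor, fell by 2.14 ± 0.11, the Fc receptor-like gene Fcrl1 by 2.89 ± 0.14, and Ptpn6, which encodes the phosphatase SHP-1, by 1.34 ± 0.11. Inpp5d, the lipid phosphatase SHIP-1, went the other way, from 9.70, 9.78 and 9.88 in wild-type to 10.77, 10.71 and 10.73 in LAP tg/BLNK KO marrow (0.95 ± 0.07, adjusted p = 3.75e-07).

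Receptors that guide B cells between marrow, blood and lymphoid tissue fell in 9 of 12 cases and rose in 0, with a median of -2.12 and the same count under each scaling and each left-out array. Cxcr5, which draws B cells into follicles, was at 9.36, 9.43 and 9.33 in wild-type and 4.15, 4.20 and 3.40 in LAP tg/BLNK KO marrow. Ccr7, which leads to the T cell zones, was at 9.23, 9.42 and 9.12 in wild-type against 4.86, 4.62 and 4.55 in LAP tg/BLNK KO marrow. They fell by 5.46 ± 0.18 (adjusted p = 2.58e-10) and 4.58 ± 0.12 (adjusted p = 5.7e-11), and the mean of the lower Cxcr5 group lay under the filter level, so its fold depends on the pseudocount of 4. P2ry10, a receptor for lysophospholipids, fell by 4.78 ± 0.23, from 10.17, 10.09 and 10.43 in wild-type to 4.78, 5.61 and 5.97 in LAP tg/BLNK KO marrow. S1pr1, the receptor used to leave the marrow and lymph nodes, fell by 1.98 ± 0.21, Ccr6 by 3.90 ± 0.30, the cannabinoid receptor Cnr2 by 3.04 ± 0.14 and Cxcr4, which holds cells in the marrow, by 0.68 ± 0.09. S1pr2, S1pr4 and Cxcr3 did not pass the test (0.22, 0.01 and -0.50).

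**Figure D2:**
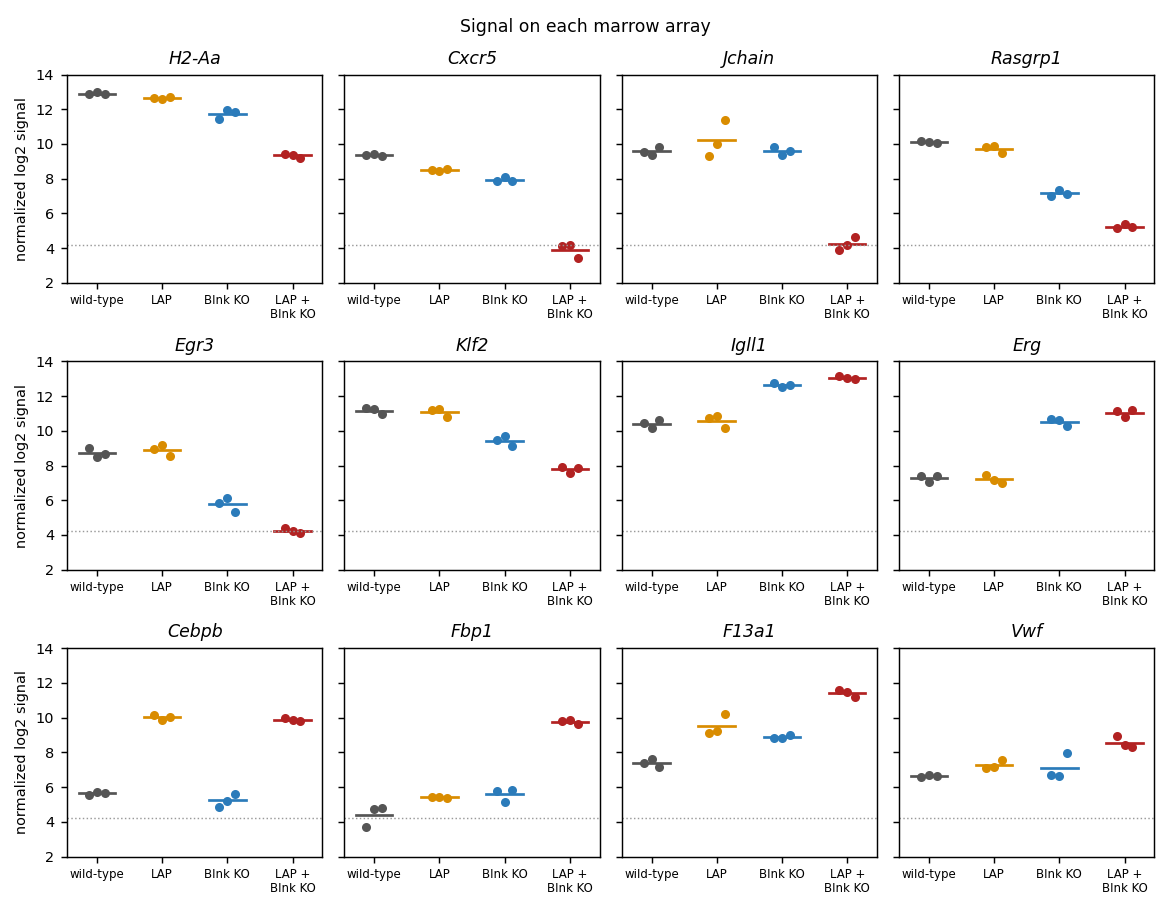
Normalized log2 signal of 12 genes on each of the 12 marrow arrays (points) with the group mean (bar); the dotted line is the filter level of 4.20. H2-Aa, Cxcr5 and Jchain separate the LAP tg/BLNK KO arrays from the other 9, Igll1 and Erg separate the 6 arrays labelled Blnk KO from the 6 without it, and Cebpb separates the 6 arrays with the transgene label.

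Surface antigens of pro-B and pre-B cells rose in 6 of 14 cases and fell in 3, with a median of 0.35. Enpep, an aminopeptidase known as BP-1 that large pre-B cells carry, was at 8.31, 8.15 and 8.60 in wild-type against 10.54, 11.26 and 11.47 in LAP tg/BLNK KO marrow (2.74 ± 0.19, adjusted p = 2.39e-07). Thy1, best known as a T cell antigen and also found on some early progenitors, was at 4.04, 4.61 and 4.97 in wild-type against 8.17, 8.37 and 8.40 in LAP tg/BLNK KO marrow (3.77 ± 0.28). Bst1 rose by 1.99 ± 0.12, Spn (CD43, carried by pro-B cells) by 1.54 ± 0.11, Cd93 by 1.03 ± 0.13 and the thymic stromal lymphopoietin receptor Crlf2 by 0.71 ± 0.14. Il2ra, the CD25 antigen that appears on small pre-B cells, fell from 7.67, 7.76 and 7.45 in wild-type to 5.19, 4.56 and 4.89 in LAP tg/BLNK KO marrow (2.75 ± 0.27). Ly6d, which marks progenitors committed to the B lineage and later B cells, fell by 4.06 ± 0.17, and Cd24a by 0.30 ± 0.06. Kit and Flt3, receptors of earlier progenitors, were at 0.21 ± 0.28, adjusted p = 0.611 and at 0.22 ± 0.41, adjusted p = 0.738.

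Intracellular signalling genes downstream of the receptor mostly fell: 21 of 28 tested fell and 5 rose, with a median of -0.52. Blnk, the gene of the knockout label, is among the 21. Rasgrp1, which activates RAS after antigen receptor signals, was at 10.18, 10.10 and 10.07 in wild-type against 5.15, 5.37 and 5.21 in LAP tg/BLNK KO marrow, with Blnk KO arrays at 7.03, 7.34 and 7.10 and LAP tg arrays at 9.80, 9.87 and 9.48. It fell 29.4-fold (4.88 ± 0.12, adjusted p = 5.7e-11). Rasgrp3 fell by 2.61 ± 0.13, Lat2, a membrane adaptor, by 3.10 ± 0.20, the SRC-family kinase gene Blk by 2.57 ± 0.20 and the adaptor Bank1 by 1.96 ± 0.10. Syk, Btk and Tec, the kinases next to BLNK, fell by 0.93 ± 0.13, 0.51 ± 0.09 and 1.26 ± 0.11. Malt1 and Bcl10, which link the receptor to NF-κB, fell by 1.63 ± 0.12 and 0.75 ± 0.10. The risers were Vav3 (1.04 ± 0.23), Fyn (0.63 ± 0.10), Pik3ap1 (0.57 ± 0.18), Vav1 (0.38 ± 0.12) and Plcg2, the phospholipase that BLNK recruits (0.28 ± 0.09). Without wild-type array 1 or 3 or LAP tg/BLNK KO array 1 or 2 the calls of Pik3ap1 (adjusted p = 0.0599 to 0.114) and Plcg2 (0.0882 to 0.154) were lost, and without wild-type array 2 or 3 or LAP tg/BLNK KO array 1 or 2 that of Vav1 (0.0591 to 0.0993). After median centring 2 of the list rose and 21 fell, and as deposited 5 and 14. With the mean of all probe sets 4 rose and 17 fell, and Vav1 did not pass the test (adjusted p = 0.0508). There were 2 rises without wild-type array 3 or LAP tg/BLNK KO array 1 or 2, 3 without wild-type array 1, and 18 to 21 falls with any 1 array left out.

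Immediate early genes and feedback regulators of the ERK pathway split. Of 25 tested, 9 fell and 4 rose, with a median of -0.39, and as deposited 9 fell and 6 rose. Egr3, a transcription factor switched on by receptor signals, was at 9.02, 8.49 and 8.67 in wild-type, 5.84, 6.15 and 5.35 in Blnk KO and 4.40, 4.22 and 4.10 in LAP tg/BLNK KO marrow (4.48 ± 0.22, adjusted p = 9.94e-09). Egr2 fell by 1.86 ± 0.29, Egr1 by 1.14 ± 0.18, Nr4a1 by 0.88 ± 0.20, the antiproliferative gene Btg2 by 1.31 ± 0.20 and the nuclear ERK phosphatase Dusp5 by 1.44 ± 0.25. Spred2 and Spred1, which restrain RAS to RAF signalling, rose by 2.16 ± 0.11 and 1.95 ± 0.13. Spred2 signal was 7.52, 7.45 and 7.62 in wild-type against 9.65, 9.61 and 9.81 in LAP tg/BLNK KO marrow, with no overlap. Dusp6, the cytoplasmic ERK phosphatase, rose by 1.17 ± 0.15. Atf3 also rose (1.20 ± 0.36), from a mean under the filter level, a call lost without wild-type array 1 or 3 or LAP tg/BLNK KO array 2 or 3 (adjusted p = 0.0639 to 0.086). Fos and Jun were variable and did not pass the test (-0.39 ± 0.66, adjusted p = 0.7, and -0.44 ± 0.54, adjusted p = 0.581).

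Of 13 NF-κB genes 9 fell and 0 rose, with a median of -0.67, and 5 fell on the values as deposited. Bcl3, an atypical inhibitor that can act as a coactivator, fell by 2.35 ± 0.26, Relb by 1.81 ± 0.20, Nfkbid by 1.86 ± 0.16 and the survival gene Birc3 by 1.62 ± 0.12. Nfkbia, the inhibitor IκBα, fell from 12.63, 12.76 and 12.59 in wild-type to 11.84, 11.61 and 11.63 in LAP tg/BLNK KO marrow (0.97 ± 0.10). Rela and Nfkb2 were at -0.24 ± 0.10, adjusted p = 0.078, and at -0.51 ± 0.24, adjusted p = 0.136.

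Among B-lineage transcription factors, 12 of 23 fell and 2 rose, with a median of -0.45. As deposited 8 fell and 4 rose. Klf2, which keeps lymphocytes quiescent and controls their homing receptors, was at 11.29, 11.25 and 10.96 in wild-type against 7.89, 7.59 and 7.87 in LAP tg/BLNK KO marrow, with a mean of 9.44 in Blnk KO marrow. It fell by 3.38 ± 0.16 (adjusted p = 8.22e-09). Ikzf3 (Aiolos) fell by 2.68 ± 0.14, Pou2f2 (OCT-2) by 1.97 ± 0.27, Spib by 1.24 ± 0.13 and Bach2 by 0.95 ± 0.10. The factors that specify the lineage were not among the falls: Ebf1 rose by 0.55 ± 0.19 (adjusted p = 0.0478), and Pax5, Tcf3 and Foxo1 had changes of -0.03, 0.02 and -0.01 with adjusted p of at least 0.939. The rise of Ebf1 did not pass with any 1 array of either group left out (adjusted p = 0.0517 to 0.171), nor after median centring (adjusted p = 0.157). Lef1, active in pro-B and pre-B cells, rose by 1.93 ± 0.22, from 9.17, 9.02 and 9.52 in wild-type to 11.25, 11.16 and 11.09 in LAP tg/BLNK KO marrow.

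Transcription factors of early progenitors rose in 4 of 15 cases and fell in 2, with a median of 0.16. Among all tested genes 16.5% rose and 14.7% fell. Erg, an ETS factor of stem and progenitor cells that is also needed in pro-B cells, was at 7.42, 7.02 and 7.42 on the wild-type arrays and 11.15, 10.82 and 11.19 on the LAP tg/BLNK KO arrays. It rose 13.6-fold (3.77 ± 0.15, adjusted p = 2.65e-09), and its mean was 7.29 in wild-type, 7.21 in LAP tg, 10.52 in Blnk KO and 11.05 in LAP tg/BLNK KO marrow. Gfi1 rose by 0.87 ± 0.12, Runx1 by 0.82 ± 0.18 and Gata2 by 0.64 ± 0.19. Hhex fell by 0.47 ± 0.10 and Lmo2 by 0.77 ± 0.22. The Gata2 call was lost without wild-type array 1 or LAP tg/BLNK KO array 1 or 2 (adjusted p = 0.0694 to 0.0941), and the Lmo2 call without wild-type array 2 or LAP tg/BLNK KO array 2 or 3 (0.0566 to 0.0648). Gata2 was also lost with the mean of all probe sets (0.41, adjusted p = 0.231). As deposited, and with only the 6 arrays in the fit, 7 of the list rose, and without wild-type array 2 or LAP tg/BLNK KO array 2 or 3 there was 1 fall. Of the class IIa histone deacetylases and MEF2 factors, 1 of 7 rose and 3 fell (3 and 2 as deposited). Hdac7, a repressor of myeloid genes in B cells, rose by 1.07 ± 0.14, while Hdac9 fell by 2.06 ± 0.12 and Mef2c, which directs lymphoid against myeloid fate, by 0.61 ± 0.12.

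Genes linked to C/EBP activity and to macrophages changed in both directions. In the C/EBP family list, Cebpb, the gene of the transgene, was the riser among 5 tested genes. Cebpa, Cebpd, Cebpg and Ddit3 were at 0.73, 0.73, -0.01 and -0.05 without passing the test. Of 23 macrophage-type genes, 5 rose and 5 fell, with a median of 0.52, where 16.5% of all tested genes rose and 14.7% fell. F13a1, a coagulation factor subunit made by monocytes and megakaryocytes, was at 7.38, 7.64 and 7.15 on the wild-type and 11.60, 11.51 and 11.19 on the LAP tg/BLNK KO arrays. Its means of 9.52 in LAP tg and 8.89 in Blnk KO marrow lay between. It rose 16.5-fold (4.04 ± 0.23, adjusted p = 4.57e-08). Fbp1, an enzyme of gluconeogenesis that monocytes also express, was at 3.70, 4.73 and 4.77 in wild-type, 5.44, 5.46 and 5.37 in LAP tg, 5.76, 5.12 and 5.86 in Blnk KO and 9.80, 9.88 and 9.62 in LAP tg/BLNK KO marrow. It rose 41.3-fold (5.37 ± 0.26, adjusted p = 1.15e-08). Anxa1 rose by 1.74 ± 0.36, Anxa2 by 0.85 ± 0.27 and Vim by 0.59 ± 0.11. The Anxa2 call was lost without wild-type array 1 or 3 or LAP tg/BLNK KO array 1 (adjusted p = 0.0721 to 0.117). Capg, an actin-capping protein, fell by 1.53 ± 0.10, S100a10 by 1.10 ± 0.10 and the NADPH oxidase genes Cybb and Cyba by 1.04 ± 0.21 and 0.60 ± 0.11. The count of risers moved with the settings, to 12 as deposited and 14 with only the 6 arrays in the fit.

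Among secreted factors, 2 of 12 tested chemokine and cytokine genes rose and 2 fell, near the shares of all tested genes (16.5% and 14.7%). The median of the list was 0.15. As deposited 5 rose and 2 fell, with a median of 0.53. Ccl9, a chemokine of myeloid cells, was at 6.45, 6.43 and 6.06 in wild-type against 9.77, 9.01 and 9.51 in LAP tg/BLNK KO marrow (3.12 ± 0.26, adjusted p = 1.32e-06), and its means were 7.98 in LAP tg and 6.07 in Blnk KO marrow. Ccl3 rose by 1.31 ± 0.40 from a mean under the filter level. Ltb, lymphotoxin β, which B cells use to organise lymphoid tissue, was at 12.12, 12.19 and 11.73 in wild-type against 9.06, 7.92 and 8.37 in LAP tg/BLNK KO marrow. It fell by 3.56 ± 0.23 (adjusted p = 1.45e-07), and its mean in Blnk KO marrow was still 11.56. Lta fell by 1.62 ± 0.49 (adjusted p = 0.022). The Ccl3 call was lost without wild-type array 2 or LAP tg/BLNK KO array 1 or 2 (adjusted p = 0.0558 to 0.0949), and the Lta call without wild-type array 1 or 2 or LAP tg/BLNK KO array 2 or 3 (0.0535 to 0.0935).

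Of 16 integrins and adhesion genes 5 rose and 2 fell, with a median of 0.37. As deposited 10 rose, and with the mean of all probe sets 3. Itgb3, the platelet and macrophage integrin β3, rose by 1.44 ± 0.22, Itgb1 by 0.79 ± 0.18, Itgal by 0.68 ± 0.16 and the tetraspanin Cd9 by 0.89 ± 0.28. With the mean of all probe sets Itgb1 was at 0.05 and did not pass the test (adjusted p = 0.857). The Cd9 call was lost without any 1 wild-type array, without LAP tg/BLNK KO array 1 or 2 (adjusted p = 0.0604 to 0.0905) and without the intensity trend in limma's variance (0.0602). Itgb7, which pairs with α4 to enter gut tissue, fell by 1.76 ± 0.17, and Cd47 by 0.82 ± 0.10. Of 13 Toll-like receptor genes and adaptors 6 fell and 2 rose, with a median of -0.33 (4 and 4 as deposited). Tlr1 was at 9.68, 9.70 and 9.64 in wild-type and 6.06, 5.57 and 5.77 in LAP tg/BLNK KO marrow, a fall of 3.87 ± 0.15 (adjusted p = 1.42e-09). The adaptor Tirap fell by 1.81 ± 0.14 and Tlr7 by 1.47 ± 0.18, while Tlr4 rose by 0.79 ± 0.20 and Myd88 by 0.51 ± 0.09. Of 18 interferon response genes 7 fell and 3 rose, with a median of -0.39. Mx1 fell by 1.67 ± 0.23 and Ifit3 by 1.29 ± 0.22, while Gbp2 rose by 0.61 ± 0.19 and Ifit2 by 0.51 ± 0.11. Without wild-type array 1 or LAP tg/BLNK KO array 2 there was 1 interferon rise, and without LAP tg/BLNK KO array 2 there was 1 Toll-like receptor rise (Tlr4 was lost, adjusted p = 0.0512). The Gbp2 call was lost without any 1 wild-type array or LAP tg/BLNK KO array 2 or 3 (adjusted p = 0.0507 to 0.0967).

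Interleukin 7 drives the growth of pro-B and pre-B cells through JAK and STAT5. Of 13 tested genes of this pathway, 5 rose and 3 fell, with a median of -0.01 (3 rises without LAP tg/BLNK KO array 1 or 2, and 5 falls after centring). The receptor gene Il7r was at 11.69, 11.86 and 11.82 in wild-type against 11.46, 11.57 and 11.75 in LAP tg/BLNK KO marrow and did not pass the test (-0.19 ± 0.11, adjusted p = 0.195). Socs2, a STAT5 target, rose by 1.66 ± 0.20, Cish by 0.62 ± 0.20 and Jak3 by 0.82 ± 0.22, whereas Socs1 fell by 2.29 ± 0.35 and the kinase gene Pim2 by 1.48 ± 0.14. The Cish call was lost without wild-type array 1 or any 1 LAP tg/BLNK KO array (adjusted p = 0.0616 to 0.129). D-type cyclins, which carry such signals into the cell cycle, went opposite ways. Ccnd3, the cyclin D that pre-B cells need to divide, was at 9.38, 9.37 and 9.44 in wild-type against 11.39, 10.80 and 10.36 in LAP tg/BLNK KO marrow (1.45 ± 0.22), and Ccnd2 was at 9.53, 9.62 and 9.82 in wild-type against 7.70, 7.63 and 7.90 in LAP tg/BLNK KO marrow (-1.92 ± 0.14). Neither gene's groups overlapped.

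In the PI3K and FOXO list 5 of 20 rose and 6 fell, with a median of 0.20 (10 and 0 as deposited). Rptor and Mtor, parts of the mTORC1 kinase, rose by 1.56 ± 0.12 and 1.12 ± 0.11, and the adaptor Gab1 by 1.34 ± 0.13. The FOXO targets Sesn1, Sesn3 and Ccng2 fell by 0.58 ± 0.12, 0.45 ± 0.09 and 0.45 ± 0.08. Of 12 BCL2 family genes 3 rose and 2 fell, with a median of 0.13 (6 and 2 as deposited, 2 and 3 after centring). Among all tested genes 16.5% rose and 14.7% fell. Bcl2 itself, which blocks cell death, fell from 8.40, 8.46 and 8.35 in wild-type to 7.21, 7.15 and 7.22 in LAP tg/BLNK KO marrow (1.21 ± 0.16), and Mcl1 fell by 0.72 ± 0.09. Pmaip1 and Bak1, which promote death, rose by 0.88 ± 0.13 and 0.69 ± 0.18.

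Many cell cycle genes rose by small amounts. Of 19 mitosis genes 15 rose and 0 fell, with a median of 0.48. Plk1, a mitotic kinase, was at 7.98, 7.92 and 7.99 in wild-type against 8.78, 9.10 and 8.86 in LAP tg/BLNK KO marrow (0.95 ± 0.16, adjusted p = 0.000503), and Kif11, a spindle motor, rose by 0.79 ± 0.17. Mki67, the Ki-67 proliferation antigen, was at 11.99, 11.93 and 11.94 in wild-type against 12.37, 12.58 and 12.37 in LAP tg/BLNK KO marrow (0.49 ± 0.10). In both sets of 3 values every LAP tg/BLNK KO array lay above every wild-type array. After median centring 5 of the 19 rose, as deposited all 19, 9 without wild-type array 2 and 7 without LAP tg/BLNK KO array 2. Of 19 DNA replication genes 9 rose and 1 fell, with a median of 0.39 (6 and 1 after centring, 17 and 0 as deposited, 6 and 1 without wild-type array 1 or LAP tg/BLNK KO array 2). Tyms, which makes thymidylate, rose by 1.50 ± 0.24, the helicase subunit Mcm3 by 0.93 ± 0.14, and Cdt1, which licenses origins, fell by 0.57 ± 0.11. Among 20 cyclins, CDKs and inhibitors of G1, 5 rose and 1 fell, with a median of 0.27 (11 and 1 as deposited). Cdk6, the partner of cyclin D, rose by 1.28 ± 0.13. Cdkn1a, the inhibitor p21, rose by 1.67 ± 0.20, from 6.12, 6.27 and 6.24 in wild-type to 8.10, 8.01 and 7.55 in LAP tg/BLNK KO marrow.

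The metabolic lists held more rises than falls. Of 16 genes of glycolysis and gluconeogenesis 9 rose and 1 fell, with a median of 0.47 (12 and 1 as deposited, 7 and 1 after centring, 2 falls without LAP tg/BLNK KO array 2). Beside Fbp1, the mitochondrial enzyme gene Pck2 rose by 1.20 ± 0.12, pyruvate kinase (Pkm) by 0.74 ± 0.10, hexokinase 1 (Hk1) by 0.68 ± 0.22 and lactate dehydrogenase (Ldha) by 0.48 ± 0.09. The glucose transporter gene Slc2a1 fell by 0.82 ± 0.13. The Hk1 call was lost without any 1 wild-type array or LAP tg/BLNK KO array 1 or 2 (adjusted p = 0.0549 to 0.118). Genes of the MYC network and ribosome biogenesis rose in 5 of 18 cases and fell in 1, with a median of 0.22 (8 and 0 as deposited, 3 and 1 after centring). Srm, an enzyme of polyamine synthesis, rose by 0.84 ± 0.10, and Myc was at 0.26 ± 0.20, adjusted p = 0.346. Of 14 sterol and fatty acid synthesis genes 5 rose and 1 fell, with a median of 0.32 (8 and 1 as deposited, 3 and 1 after centring, without wild-type array 3 and without LAP tg/BLNK KO array 1 or 2). Sqle, an early enzyme of the sterol branch, rose by 1.50 ± 0.27, while the desaturase Scd1 fell from 12.10, 12.01 and 12.14 in wild-type to 9.81, 9.74 and 9.35 in LAP tg/BLNK KO marrow (2.45 ± 0.14, adjusted p = 4.27e-08).

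**Figure D3:**
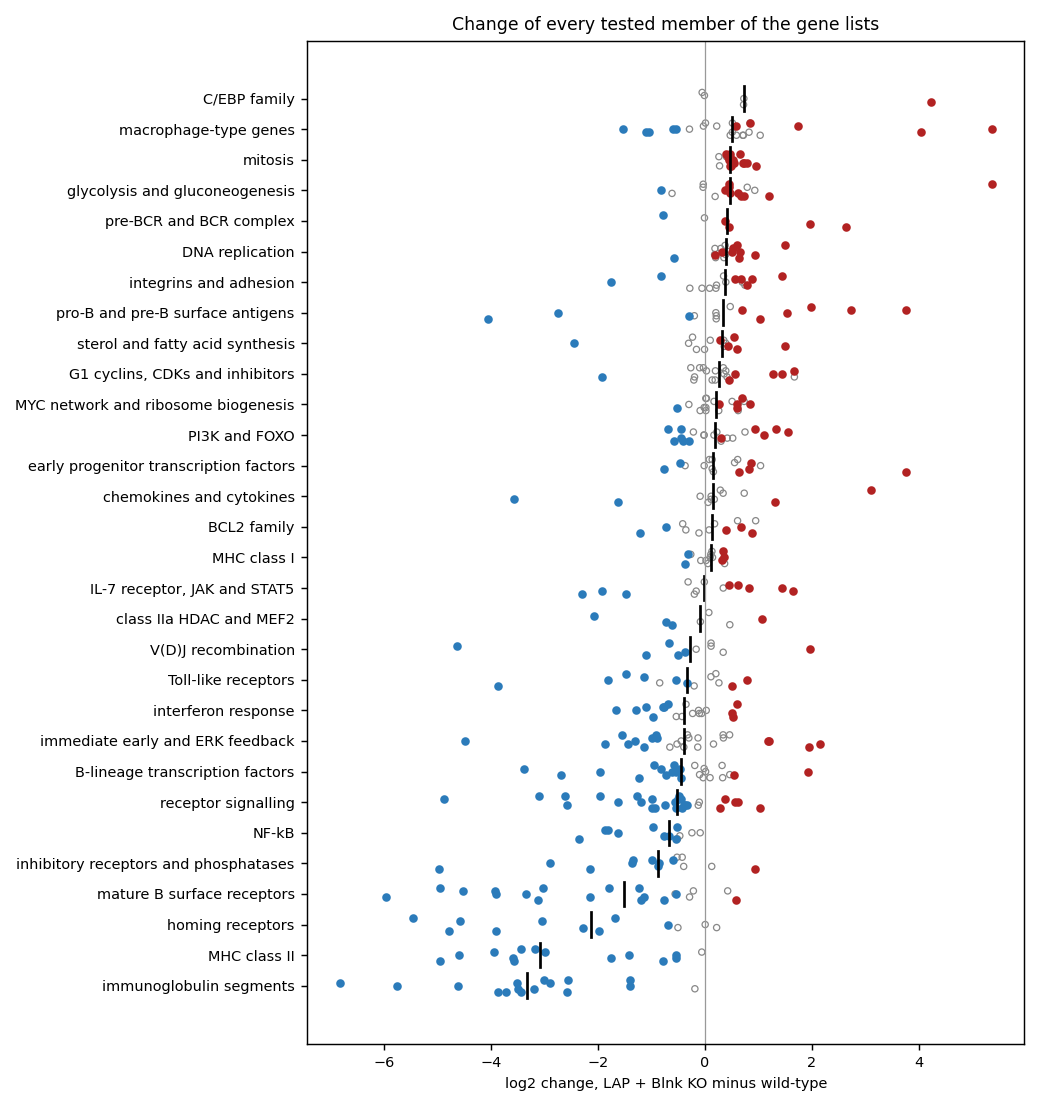
Log2 change (LAP tg/BLNK KO minus wild-type) of every tested member of the gene lists and of the immunoglobulin segments, ordered by their median (black bar); red points rose, blue points fell and open points did not pass an adjusted p of 0.05 (3 arrays per group). Immunoglobulin segments (median -3.32), MHC class II (-3.08) and homing receptors (-2.12) stand at the low end, and every other median except that of the mature B surface receptors (-1.51) lies within 1 of 0.

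The 12 largest rises with both groups above the filter level, immunoglobulin segments left out, were Fbp1, Cebpb, F13a1, Tmem255a, Pcp4l1, Bace1, Thy1, Erg, Serpinf1, Smtnl2, Abca9 and Sh2d5. Tmem255a was at 5.60, 5.37 and 5.40 in wild-type against 9.36, 9.26 and 9.63 in LAP tg/BLNK KO marrow, with means of 5.25 in LAP tg and 8.67 in Blnk KO marrow. Serpinf1, a secreted serpin, rose by 3.52 ± 0.18 with means of 6.54 and 9.22 there, and Smtnl2 by 3.26 ± 0.25 with 6.68 and 8.91. These 3 genes stood high on arrays labelled Blnk KO, with or without the transgene. Abca9, a transporter of the ABC family, was higher in both groups with the transgene: it rose by 3.22 ± 0.27, with 6.83 in LAP tg and 5.19 in Blnk KO marrow. Bace1, the β-secretase, was at 5.72, 4.86 and 5.19 in wild-type and 9.37, 8.92 and 8.96 in LAP tg/BLNK KO marrow (3.83 ± 0.24), with 5.88 and 6.88 in the marrow of a single change. Pcp4l1 (3.89 ± 0.18) and Sh2d5 (3.16 ± 0.22) were likewise intermediate, at 6.08 and 7.81, and at 5.85 and 6.97.

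The sequence TTNNGNAA, a loose form of the C/EBP recognition site, was searched on both strands in the 250 bases before the start of these genes. It occurred in 6 of the 9 whose promoter was searched, and in 36.9% of all 27025 promoters. The 9 include Cebpb, the gene of the transgene, which held 0. Of the genes that stood high on arrays labelled Blnk KO, Erg and Tmem255a held the sequence and Serpinf1 and Smtnl2 did not. A match describes the sequence and not binding, and whether C/EBPβ acts on these genes was not tested. Searched the same way TTNNGNAA occurred in 4 of the 10 MHC class II list promoters. CCAAT occurred in 6 of the 9.

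Of the 12 largest falls by the same rule, Jchain, Btla, H2-DMb2, Rasgrp1, P2ry10, Brwd1, H2-Eb1, Ccr7, Fcmr, Egr3 and Ly6d are members of the lists above or of the plasma cell list. Jchain, which joins secreted IgM and IgA into polymers, was at 9.56, 9.37 and 9.82 in wild-type, 9.33, 9.97 and 11.36 in LAP tg, 9.83, 9.35 and 9.60 in Blnk KO and 3.90, 4.20 and 4.64 in LAP tg/BLNK KO marrow. All 9 other arrays lay at least 4 log2 units above the 3 with both changes. It fell by 5.33 ± 0.38 (adjusted p = 3.06e-07). The remaining gene, G530011O06Rik, fell from 11.95, 10.01 and 10.21 in wild-type to 6.27, 6.90 and 6.47 in LAP tg/BLNK KO marrow (4.17 ± 0.51).

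Changes that start or end under the filter level have a fold that depends on the pseudocount. The 5 largest rises of this kind were Kcna5, Ttll9, Rasa4, B3galt1 and Efhd1. Kcna5, a voltage-gated potassium channel, was at 2.73, 2.37 and 2.30 in wild-type and 8.88, 9.46 and 9.65 in LAP tg/BLNK KO marrow, with means of 4.95 in LAP tg and 6.80 in Blnk KO marrow. It rose by 6.86 ± 0.22 (adjusted p = 2.58e-10). B3galt1, a galactosyltransferase, went with the transgene, at 2.34 in wild-type, 7.23 in LAP tg, 2.57 in Blnk KO and 6.50 in LAP tg/BLNK KO marrow. Rasa4, which switches RAS off, went with the knockout label, at 2.63 in wild-type, 4.02 in LAP tg, 6.49 in Blnk KO and 6.81 in LAP tg/BLNK KO marrow. Ttll9 rose by 4.28 ± 0.30 and Efhd1 by 4.07 ± 0.42. The 5 largest falls were Fcer2a, Cxcr5, Gm8369 (5.13 ± 0.20), the small GTPase gene Rab30 (4.39 ± 0.40) and Myzap (4.29 ± 0.19).

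Markers of other blood cells were present on all arrays and some moved with the genotype. All 9 tested megakaryocyte and platelet genes rose, with a median of 1.50, and at least 8 of the 9 did so under every scaling and every left-out array. Their summed signal was 2732 to 2891 on the wild-type and 7088 to 10380 on the LAP tg/BLNK KO arrays, with 3215 to 5460 in LAP tg and 2807 to 5847 in Blnk KO marrow. Ppbp, a platelet chemokine, was at 10.54, 10.47 and 10.51 in wild-type against 12.35, 12.01 and 11.91 in LAP tg/BLNK KO marrow (1.58 ± 0.24), and Vwf, von Willebrand factor, rose by 1.91 ± 0.28. F13a1, Itgb3 and Cd9 above are also made by megakaryocytes. They rose as this list did, and the part of megakaryocyte RNA in their changes was not tested.

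Neutrophil genes had a median change of 1.00, and 3 of 16 rose and 0 fell, where 16.5% of all tested genes rose and 14.7% fell. The risers were S100a8 (0.67 ± 0.22), Ngp (1.05 ± 0.37) and Mmp9 (1.50 ± 0.40), and the values that follow are of all 16. Their summed signal was 20762 to 26037 on the wild-type and 38942 to 50528 on the LAP tg/BLNK KO arrays, which do not overlap, although LAP tg arrays ranged from 22259 to 67489. As deposited 12 rose and with only the 6 arrays in the fit 13, while leaving out any 1 array of either group gave 0 or 1. Ngp (adjusted p = 0.0692 to 0.137) and S100a8 (0.069 to 0.111) were lost each time, and Mmp9 without wild-type array 3 (0.0586). Of 12 monocyte genes, Ccr2 rose (1.16 ± 0.32) and none fell. The Ccr2 call was lost without wild-type array 3 or LAP tg/BLNK KO array 1 (adjusted p = 0.0519 to 0.0582). As deposited 7 monocyte genes rose and with only the 6 arrays 4, while with the mean of all probe sets 0 rose and 1 fell. The summed monocyte signal was 4988 to 6297 on the wild-type and 7503 to 8750 on the LAP tg/BLNK KO arrays. The neutrophil, monocyte and macrophage-type sums, Fbp1 and Ccl9 were all higher in LAP tg/BLNK KO than in wild-type marrow. LAP tg array 3 had the highest neutrophil (67489) and monocyte (15569) sums of the 12 arrays, with Fbp1 at 5.37 and Ccl9 at 8.44. The part of neutrophils and monocytes in the Fbp1, Ccl9 and macrophage-type results was not tested.

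Of 7 plasmacytoid dendritic cell genes 6 fell and 1 rose (median -0.76), and 2 and 1 as deposited. Their summed signal was 4737 to 5515 in wild-type and 4064 to 4372 in LAP tg/BLNK KO marrow. Siglech, their defining receptor, fell by 1.13 ± 0.32 (adjusted p = 0.0572 without wild-type array 3), and Ccr9, shared with the homing list, by 2.27 ± 0.30. These cells carry B220 and class II, and their part in the falls was not tested. Of 7 plasma cell genes 4 fell and 2 rose (median -0.55): Prdm1 fell by 1.30 ± 0.18 and Sdc1 by 1.73 ± 0.26, while Mzb1, also found in marginal zone B cells, rose by 0.91 ± 0.08. Of 10 T and NK cell genes Klrd1 (0.77 ± 0.19) and Gzma (0.55 ± 0.19) rose and none fell (without any 1 wild-type array or LAP tg/BLNK KO array 2 or 3, Gzma was lost, adjusted p = 0.0597 to 0.171), and the defining T cell gene Cd3e was at 3.70 and 4.13, under the filter level in both groups. No erythroid gene of 5 and no basophil or eosinophil gene of 5 passed limma's test, though 3 of each rose with only the 6 arrays in the fit. Of the sex-linked list 2 genes were tested, and Xist, the RNA of the inactive X chromosome, was bright in both groups (12.52 and 12.72). It rose by 0.20 ± 0.05, was at -0.11 after median centring, and had a second probe set that fell (-1.14 ± 0.18, adjusted p = 0.000391).

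**Figure D4:**
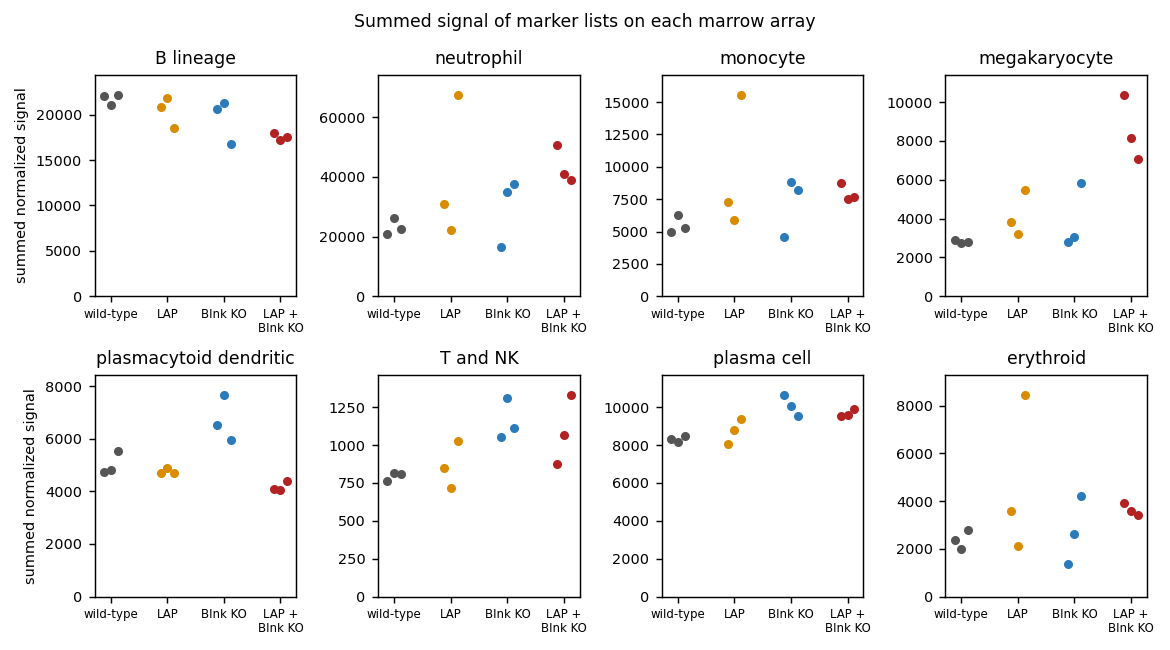
Summed normalized signal (linear scale) of 8 marker lists on each of the 12 marrow arrays, 3 per group. Megakaryocyte sums on the LAP tg/BLNK KO arrays (7088 to 10380) lie above all other arrays, and the highest neutrophil sum, 67489, belongs to a LAP tg array.

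The genes that lie next to Blnk were counted too. Of 40 measured neighbours, 20 on each side, 6 rose and 7 fell, with a median of 0.11. As deposited 17 rose and 2 fell. Rises were those of Cep55, Aldh18a1, Entpd1, Dntt, Pik3ap1 and Pgam1, between 0.46 and 1.98, and falls those of Hhex, Myof, Tbc1d12, Ccnj, Lcor, Frat2 and Exosc1. The largest of the falls was Myof (1.54 ± 0.35), and the smallest adjusted p that of Lcor (0.71 ± 0.09, adjusted p = 3.53e-05). Leaving out 1 array ended the calls of Cep55 (wild-type 1 or 2, LAP tg/BLNK KO 2 or 3, adjusted p = 0.0658 to 0.117), Frat2 (wild-type 1 or 3, LAP tg/BLNK KO 2, 0.0741 to 0.095) and Tbc1d12 (wild-type 2, LAP tg/BLNK KO 1, 0.0625 to 0.0722). With the mean of all probe sets Cep55, Entpd1 and Tbc1d12 did not pass the test (adjusted p = 0.162, 0.156 and 0.189). The share of 13 in 40 stands beside 31.2% of all genes.

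Whether the transgene changed a gene differently with and without the knockout label was tested as an interaction, which is the change with LAP on the Blnk KO background less that on the wild-type background. The comparisons share samples with the one above, and the values are set side by side. Of 13347 genes 231 passed, or 1.73%: 65 positive and 166 negative (1989 had an unadjusted p under 0.05). The count was 133 without Blnk KO array 2, 370 without Blnk KO array 3, 139 without wild-type array 1 or 3, and 146 without LAP tg/BLNK KO array 3. Among genes that also changed in LAP tg/BLNK KO against wild-type marrow, immunoglobulin segments left out, the 6 most negative were Jchain, Fcer2a, Cxcr5, Crhbp, Ccr1 and Ltb, and the 6 most positive were G530011O06Rik, Fbp1, Igsf5, Abi2, Ccl9 and Stat4.

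For Fcer2a and Cxcr5 the LAP change was small in wild-type marrow and large with the knockout label. Cxcr5 was at 8.53, 8.46 and 8.58 on the LAP tg and 7.86, 8.12 and 7.84 on the Blnk KO arrays, both below the wild-type values, and near or under the filter level on all arrays with both changes. The LAP change was -0.85 ± 0.18 in wild-type and -4.03 ± 0.18 in Blnk KO marrow, an interaction of -3.18 ± 0.25, adjusted p = 3.22e-05. Fcer2a gave -0.79 ± 0.27 and -4.01 ± 0.27, and Ltb -0.27 ± 0.23 and -3.11 ± 0.23. Chosen after their values were seen, H2-Aa (-2.16 ± 0.15, adjusted p = 1.38e-05), Ms4a1 (-2.54 ± 0.12, adjusted p = 2.21e-07), Btla (-2.53 ± 0.26, adjusted p = 0.00024) and Klf2 (-1.55 ± 0.23, adjusted p = 0.00243) passed the interaction test, and Ciita (-0.70 ± 0.26, adjusted p = 0.235) and H2-Ab1 (-0.91 ± 0.25, adjusted p = 0.0957) did not.

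Igha signal was 10.14, 10.14 and 10.26 in wild-type, 10.88, 11.27 and 12.37 in LAP tg, 11.52, 11.17 and 11.21 in Blnk KO and 4.55, 4.59 and 4.15 in LAP tg/BLNK KO marrow. The arrays with both changes lay near the filter level and all others well above it, an interaction of -8.20 ± 0.39, adjusted p = 2.21e-07. Fbp1 had an interaction of the opposite sign, with a LAP change of 1.02 ± 0.26 in wild-type and 4.19 ± 0.26 in Blnk KO marrow (3.16 ± 0.37, adjusted p = 0.000778). Stat4, a transcription factor that responds to interleukin 12, was at 7.25, 7.25 and 7.62 in wild-type, 6.71, 6.89 and 7.11 in LAP tg, 8.14, 7.77 and 7.88 in Blnk KO and 9.12, 9.14 and 9.18 in LAP tg/BLNK KO marrow. Its LAP change was -0.47 ± 0.14 in wild-type and 1.21 ± 0.14 in Blnk KO marrow (1.68 ± 0.19, adjusted p = 0.000704). Abi2, a regulator of actin, followed the same order of groups, at 6.70 in wild-type, 6.13 in LAP tg, 7.36 in Blnk KO and 8.62 in LAP tg/BLNK KO marrow. Igll1 (0.26 ± 0.22, adjusted p = 0.644) and Erg (0.61 ± 0.22, adjusted p = 0.204) did not pass the interaction test.

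**Figure D5:**
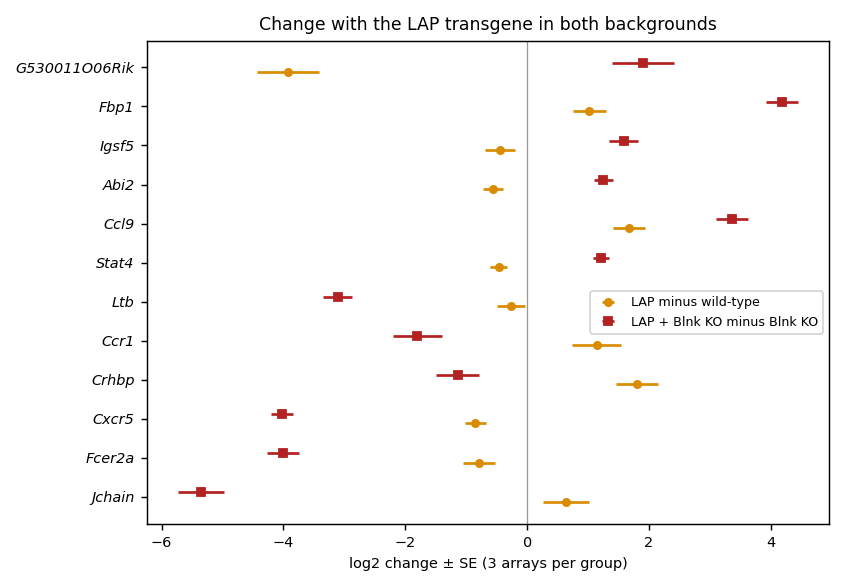
Log2 change with the LAP transgene ± SE, in wild-type background (circles) and in Blnk KO background (squares), for the 6 largest interactions of each sign among genes that passed both tests, immunoglobulin segments left out (3 arrays per group). The squares of Jchain, Fcer2a, Cxcr5 and Ltb lie at or below -3 while their circles lie above -1, and those of Fbp1 and Ccl9 lie above 3.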

How the data were processed

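Per the submitters' processing notes the deposited intensity values are MAS5 signals on a linear scale, 1 value per probe set and array, with a scaling target that no source used here gives. Per the labels, the input of each array was 100 ng of RNA. Here 64 control probe sets were left out, 4 was added, log2 taken, and the 12 marrow arrays quantile normalized. Probe sets named with 1 gene symbol were kept, and the brightest stood for its gene. The called genes among the named and listed ones had 334 other probe sets that passed the filter. Of these, 225 were called in the same direction, 1 in the opposite direction, and 108 were not called. A gene was tested where it passed the 40th percentile of its array on at least 3 arrays (mean log2 level 4.20), which left 13347 of 18193 genes. One model over the 4 marrow groups was fitted with limma 3.58.1 in R 4.3.3 (intensity trend, Benjamini-Hochberg). It was tested on simulated data with independent noise for 13347 genes. It recovered 66 of 100 genes changed by 1 log2 unit and 90 of 100 changed by 2, with 7 false calls among the unchanged genes. In the real comparison 31.2% of genes were called and arrays may share shifts, so these rates do not carry over to it. The number of arrays limits the precision.

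Genes were named by a fixed rule: the 12 largest rises and falls, the 5 largest of each under the filter level, up to 4 of each direction per list with members that complete a family, the targeted genes, the 6 largest interactions of each sign and the called neighbours of Blnk. In several lists further members were named beyond this rule, among them genes that did not pass the test. The gene lists, members and tests were chosen with earlier results of these data known. Alternatives covered the scaling, pseudocount, filter, probe set choice, intensity trend, samples in the fit, a replicate block and each array left out. Replicate numbers did not pair the arrays (correlations of deviations -0.01, 0.01 and 0.04).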

Additional observations from a re-analysis of the deposited data

Results flagged for a closer look

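The change with the LAP transgene differed between the Blnk KO and the wild-type background for 231 genes, by limma's interaction term (3 arrays in each of the 4 groups). The 12 genes given here are the 6 largest interactions of each sign among those that also changed against wild-type, immunoglobulin segments left out. The interaction is the LAP change in Blnk KO marrow minus that in wild-type marrow. It was 5.83 for G530011O06Rik (adjusted p = 0.000928), whose LAP change was 1.90 with and -3.93 without the knockout label. It was 3.16 for Fbp1 (adjusted p = 0.000778; 4.19 and 1.02) and 1.70 for Ccl9 (adjusted p = 0.0362; 3.36 and 1.67), with LAP changes above 0 in both backgrounds. The Ccl9 interaction was lost without the intensity trend (adjusted p = 0.0955), without any 1 wild-type array, and without LAP tg/BLNK KO array 1 or 3, LAP tg array 1 or 2 or Blnk KO array 1 or 2 (0.0589 to 0.098). Igsf5 had 2.03 (adjusted p = 0.00768), Abi2 1.82 (adjusted p = 0.000993) and Stat4 1.68 (adjusted p = 0.000704), each with a LAP change above 0 in Blnk KO and below 0 in wild-type marrow.

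Negative interactions were -5.98 for Jchain (adjusted p = 9.97e-05; LAP changes -5.35 and 0.64), -3.22 for Fcer2a (adjusted p = 0.000778; -4.01 and -0.79), -3.18 for Cxcr5 (adjusted p = 3.22e-05; -4.03 and -0.85) and -2.84 for Ltb (adjusted p = 0.000772; -3.11 and -0.27). Crhbp had -2.94 (adjusted p = 0.00699; -1.14 and 1.80) and Ccr1, a chemokine receptor of myeloid cells, -2.94 (adjusted p = 0.0174; -1.80 and 1.14). The Ccr1 interaction was lost with the mean of all probe sets (adjusted p = 0.0599), without the intensity trend (0.0598), and without wild-type array 1 or 3 or LAP tg/BLNK KO array 3 (0.055 to 0.0635).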

How the results depend on the processing

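On the values as deposited, 1814 genes changed at least 2-fold, 4726 were higher, 785 were lower and 123 passed the interaction test. Without the intensity trend 145 passed the interaction test. Leaving out 1 array gave 133 (Blnk KO array 2) to 370 (Blnk KO array 3) interaction calls, and 3304 to 3553 calls against wild-type, against 4165 with all arrays. The signs that reversed were those of H2-K1 (-0.29), H2-D1 (-0.28), B2m (-0.27), Pcna (-0.12) and Xist (-0.11) after median centring. With the mean of all probe sets of a gene they were those of H2-D1 (-0.39), Aurka (-0.057), Bub1b (-0.054), Ms4a6c (-1.75) and Xist (-0.10), and as deposited that of Tsc1 (3e-04). The cause was not tested. With the replicate block 4105 genes changed (2188 higher, 1917 lower) and 247 passed the interaction test. Pseudocounts of 1 and 16 changed the side of the threshold of none of the 582 single genes examined, while on the deposited scaling 45 calls were lost and 99 gained. Single small changes and interactions are the least stable of these results.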
